A study of Mus musculus with 12 samples.

Results

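Immediate early genes are switched on within minutes of a signal from stored transcription factors, with no need for new protein. A set of 10 genes of this class outside the FOS, JUN and EGR families are described here: Zfp36, Ier2, Ier3, Dusp1, Nr4a1, Klf2, Klf4, Btg2, Atf3 and Myc. They were taken by name from a list of the class and make up 10 of the 51707 genes to which transcripts of the 12 libraries were matched. All 10 had reads and all 10 passed the filter on low counts, which left 14711 genes for testing.

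RNA came from a mouse cell line that the labels name MLO-Y4, an osteocyte-like line, with genotype WT in every group. The names given to the tables start with MC3, another name than the label's, and which line was used was not checked against a reference. There were 4 groups of 3 libraries, and cells in all of them grew on plates coated with rat tail collagen at 0.15 mg/mL. Undifferentiated control and undifferentiated BIGH3 cells differed by the addition of recombinant human BIGH3, the secreted matrix protein encoded by TGFBI. Differentiated control and differentiated BIGH3 cells differed in the same way and grew in α-MEM that held β-glycerophosphate (4 mM), ascorbic acid (50 µg/mL) and fetal bovine serum (10%). The labels give no medium for undifferentiated cells, so differentiation and a direct effect of its medium cannot be told apart. No source used here gives the dose of BIGH3, the time of exposure, the time since the last change of medium or what the controls received. Whether libraries of a group are separate cultures is not in the labels, so p-values measure the spread between these libraries, which may be technical. In bulk RNA, fewer cells that express a gene and less of its RNA per cell cannot be told apart.

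Most of these genes are induced through ERK, p38 or cAMP signalling acting on serum response factor, CREB and related factors already bound at their promoters, and their messages decay fast through AU-rich stretches in the 3′ UTR. Several then damp the signal that induced them: Dusp1 dephosphorylates MAP kinases, and the Zfp36 protein, tristetraprolin, binds AU-rich messages and speeds their decay. In bone cells, serum, mechanical load and parathyroid hormone are known inducers of the class.

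Depth was 19014492 to 27612155 estimated reads per library. Of 12 osteocyte and osteoblast markers, Fgf23 had no read in any group and Sost had reads in differentiated controls only. The list summed to 2253 to 3492 CPM (read counts scaled for depth), of which Col1a1 gave 1616 to 3049. Sp7 and Mepe reached at most 1.16 and 0.896 CPM. In differentiated cells Dmp1 was at 35.6 to 38.6 CPM in controls and 80.1 to 95.3 with BIGH3. Phex went the other way, from 80.2 to 87.3 CPM in controls to 20.9 to 25.6 with BIGH3. Summed endothelial markers reached at most 8.004 CPM. Summed macrophage and osteoclast markers were at 36.1 to 37.1 CPM in differentiated controls. With BIGH3 their sum was 18.1 to 19.9 CPM in differentiated cells, and undifferentiated libraries had 3.36 to 4.86 CPM. Ctsk alone gave 33.6 to 35.3, 16.7 to 17.9 and 2.35 to 3.35 CPM of these sums, in the same order. Ptprc, Cd68, Csf1r and Adgre1 reached at most 0.856 CPM in any library, and Itgam had reads in undifferentiated cells only. Acp5 was low but moved as Ctsk did between the states, at 0.503 to 0.992 CPM in differentiated and at most 0.140 in undifferentiated libraries. Ocstamp had 0.248 to 0.424 CPM in differentiated controls and at most 0.234 in the other groups. Chondrocyte markers summed to 211 to 219, 122 to 130 and 326.5 to 364 CPM in that order. Col2a1 and Sox9 were lower in differentiated than undifferentiated controls, while Cnmd was higher, at 10.1 to 13.3 against 2.62 to 3.21 CPM. Muscle markers were at 33.9 to 40.3 CPM in differentiated controls and 18.0 to 21.7 with BIGH3, and adipocyte markers at 2.41 to 4.05 CPM in differentiated and 0.122 to 0.489 in undifferentiated libraries. Of the adipocyte sum, Lep gave 2.24 to 3.02 CPM in differentiated controls and 0.0912 to 0.112 with BIGH3. Fabp4 went the other way, from 0.320 to 0.951 CPM in differentiated controls to 1.87 to 2.07 with BIGH3. The part of these lists in the differences between groups was not tested. Liver transcripts were present in some libraries: Afp, a fetal liver protein, was at 63.3 CPM in undifferentiated control 2, 27.0 in differentiated BIGH3 3, 24.9 in differentiated control 2 and 11.2 in undifferentiated BIGH3 1, against at most 3.64 in the others. Of 10 liver markers 9 had reads, and their sum ran from 2.36 to 109 CPM. Trf alone gave 20.2 to 24.7 CPM of it in differentiated BIGH3 libraries, also in those low in Afp. Of 4 epithelial markers, Krt8 and Krt18 were highest in undifferentiated control 2, at 8.50 and 3.92 CPM. Cdh1 was not, at 7.19 CPM there and 7.19 to 8.63 CPM over the undifferentiated libraries. It was at 4.48 to 5.99 CPM in differentiated controls and 1.44 to 1.79 with BIGH3. Epcam reached at most 0.168 CPM. Without the 3 libraries richest in Afp the 5 comparisons below called 0, 5, 9, 9 and 4 members, and without the 4 richest 0, 6, 9, 8 and 5, against 0, 6, 9, 9 and 5 with all libraries. Calls that end without these libraries are named beside the result.

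The best-expressed transcripts of the members had few exons and short genomic spans. In the best-expressed transcript of each, the number of exons was 1 to 7 with a median of 3, against a median of 9 for 11834 coding genes tested. Among the members 8 of 10 had 4 exons or fewer, against 22.14% of the coding genes, and 9 of 10 spanned less than 10000 bases, against 27.35%. Only Atf3, at 13045 bases, was longer. The core letters of AU-rich elements, ATTTA, were found in the 3′ UTR of 9 of 10 members, all but Ier2, against 65.23% of coding genes, and TATTTAT in 6 of 10 against 26.83%. Density of ATTTA had a median of 3.22 per kilobase of 3′ UTR in the members and 1.203 in coding genes, and was highest in Ier3 at 8.157, followed by Dusp1 at 5.797.

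Promoter sequence is shown for Dusp1, Btg2, Ier3 and Klf4, because in these genes the effect of BIGH3 differed between the cell states, as given below. Each run is read 5′ to 3′ on the gene's strand from RefSeq (GRCm38.p6), begins 250 bases before the RefSeq start site and stops at that site or at the first base that GENCODE M21 puts in an exon of the gene. The window of Zfp36, the fifth such gene, lies inside an annotated exon and is not shown. Capitals mark matches to the motifs searched. Dusp1 is at chr17:26508520-26508722 (minus strand), Btg2 at chr1:134079156-134079405 (minus strand), Ier3 at chr17:35821463-35821683 (plus strand) and Klf4 at chr4:55532476-55532725 (minus strand).
Dusp1 promoter: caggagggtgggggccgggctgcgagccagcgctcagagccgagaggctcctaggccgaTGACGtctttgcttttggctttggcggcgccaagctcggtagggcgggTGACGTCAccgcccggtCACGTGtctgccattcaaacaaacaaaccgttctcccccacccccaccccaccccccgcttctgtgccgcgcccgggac
Btg2 promoter: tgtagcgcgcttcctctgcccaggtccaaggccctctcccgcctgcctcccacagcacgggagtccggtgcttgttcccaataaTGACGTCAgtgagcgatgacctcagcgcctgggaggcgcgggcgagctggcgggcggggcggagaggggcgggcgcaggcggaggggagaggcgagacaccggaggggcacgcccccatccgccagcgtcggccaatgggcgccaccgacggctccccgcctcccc
Ier3 promoter: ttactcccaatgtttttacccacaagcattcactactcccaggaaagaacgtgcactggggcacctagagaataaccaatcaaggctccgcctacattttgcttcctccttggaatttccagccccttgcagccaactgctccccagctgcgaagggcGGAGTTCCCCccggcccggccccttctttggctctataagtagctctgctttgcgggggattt
Klf4 promoter: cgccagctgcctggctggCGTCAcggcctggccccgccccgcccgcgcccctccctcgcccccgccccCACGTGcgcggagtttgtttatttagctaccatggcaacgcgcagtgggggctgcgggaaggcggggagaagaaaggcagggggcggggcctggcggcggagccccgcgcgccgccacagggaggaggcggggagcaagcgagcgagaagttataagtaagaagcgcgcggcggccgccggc

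Promoters of 8 of the 10 members were in the RefSeq table, and those of Ier2 and Myc were not. Both strands of the window from 250 bases before to 50 bases after the start were searched, and the same search was run over 32851 promoters of 300 bases. The cAMP response element (CRE), TGACGTCA, was found in Dusp1 (from -143 to -136, counted from the start site as 0) and Btg2 (from -166 to -159), and in 1.79% of all promoters. Its short form TGACG, which lies inside the full element, was found in 6 of 8 members and in 20.81% of all promoters. Nr4a1, Klf2, Klf4 and Atf3 held the short form alone, and Nr4a1 held it at 4 places. An NF-kB site, the binding site of the factor that drives many inflammatory genes, was found in Ier3 (from -92 to -83) and at the start of Nr4a1, and in 4.51% of promoters. A CArG box, the site of serum response factor, was found in Zfp36 alone (from -58 to -49), and in 1.63% of promoters. The E-box CACGTG was in Dusp1 and Klf4 (7.15% of promoters), and the STAT motif TTCNNNGAA was in Zfp36 (8.3%). The AP-1 motif TGANTCA (7.81% of promoters), the EGR motif GCGTGGGCG (0.61%) and TATAAA (13.62%) were in none of the 8 windows. These matches are letters in a window, and binding was not measured.

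**Figure D1:**
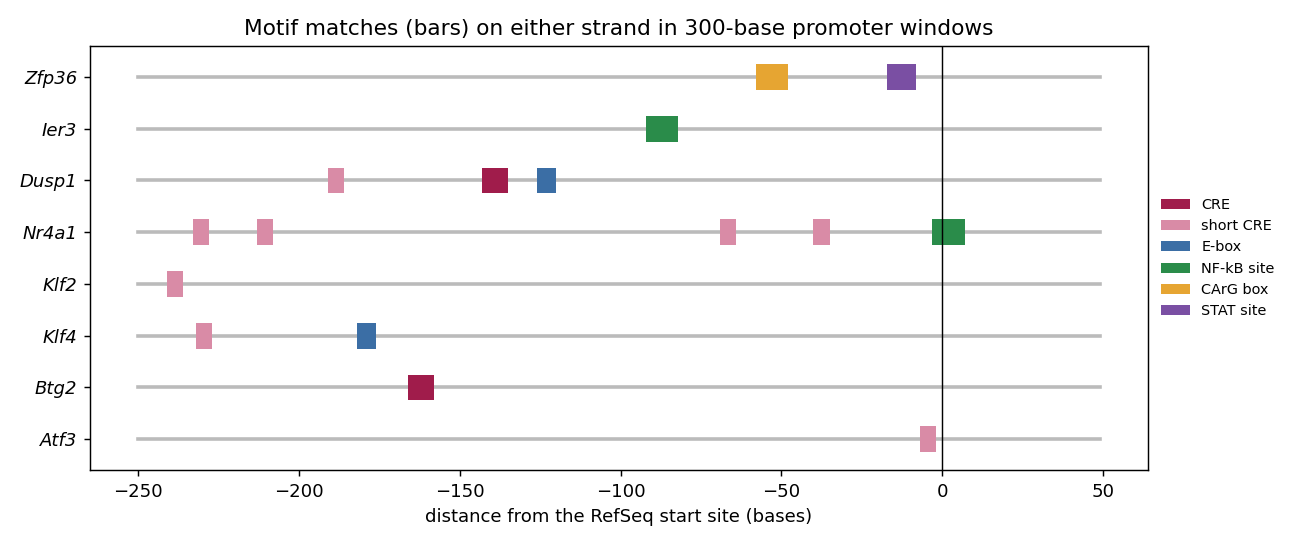
Motif matches in the promoters of 8 members. The x axis is the distance in bases from the RefSeq start site (0, black line), grey lines are the windows searched and coloured bars are matches on either strand. The full CRE appears in Dusp1 and Btg2, the NF-kB site in Ier3 and Nr4a1, and the CArG box in Zfp36.

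Levels of the members spanned a wide range. Per length, in TPM (the deposited length-corrected transcript share), undifferentiated controls had most of Klf4 (117.1 ± 5.27, SD, n = 3) and Ier2 (97.4 ± 14.3), whose libraries overlapped. Btg2 (50.6 ± 1.33), Zfp36 (47.5 ± 0.538) and Myc (36.6 ± 1.10) came next, then Ier3 (22.5 ± 1.22), Dusp1 (18.6 ± 2.33), Klf2 (8.58 ± 0.554) and Nr4a1 (7.18 ± 1.28). Atf3 was the lowest at 0.194 ± 0.289 TPM. The order was different in differentiated controls, where Klf4 (69.4 to 81.4 TPM), Btg2 (27.8 ± 1.64) and Myc (24.8 ± 3.49) led and Ier2 stood at 16.0 ± 3.07 TPM. Nr4a1 was then at 12.8 ± 0.798 TPM, above Dusp1 (7.10 ± 0.753) and Zfp36 (6.28 ± 0.303), both of which had stood above it in the undifferentiated cells.

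**Figure D2:**
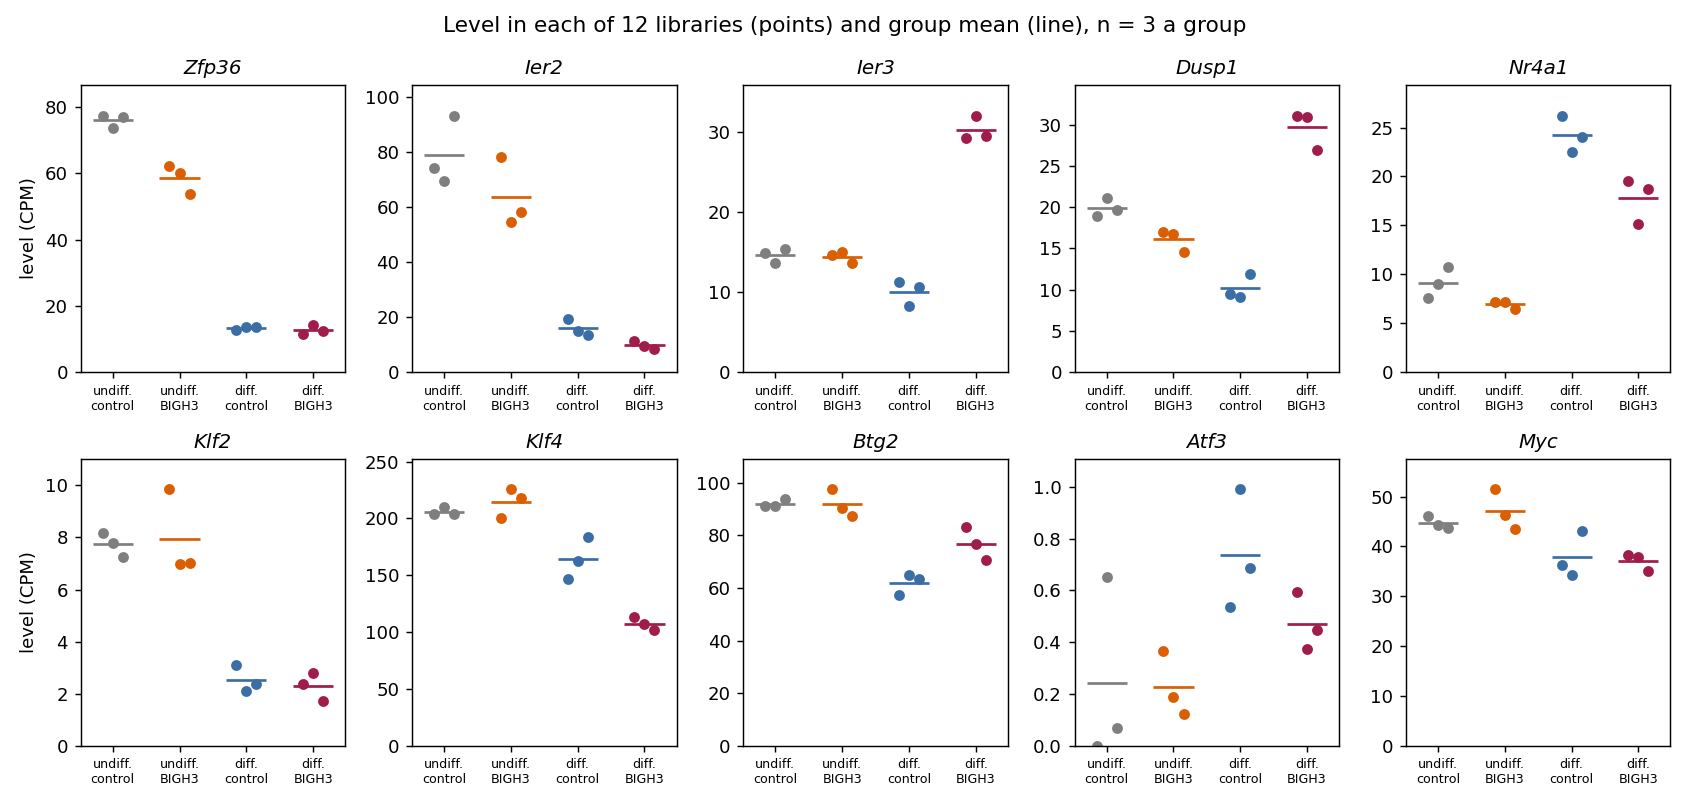
Level of the 10 members in each library, in CPM on linear axes that start at 0. Points are libraries and lines are group means (n = 3). Zfp36, Ier2 and Klf2 are low in all 6 differentiated libraries, Nr4a1 is high in them, and Ier3 and Dusp1 are highest in the 3 differentiated BIGH3 libraries.

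The first comparison asked what BIGH3 did in undifferentiated cells. None of the 10 members was called in edgeR's quasi-likelihood test at an adjusted p below 0.05, where 0.0204% of all genes were called (0.00680% higher and 0.0136% lower). Zfp36, Dusp1 and Nr4a1 had an unadjusted p below 0.05, against 4.07% of all genes, and the same 3 were lower in every BIGH3 library than in every control, against 4.37%. DESeq2 called 1 of the 10, Zfp36.

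Zfp36 had 77.4, 73.8 and 77.0 CPM in the controls and 62.3, 60.2 and 53.7 with BIGH3. All 3 treated libraries were below all 3 controls. The log2 fold change was -0.37 ± 0.07 (SE), with an adjusted p of 0.101 in edgeR and 0.00230 in DESeq2, so the call turned on the tool. Scaling by library totals (adjusted p = 0.0476 in edgeR) and leaving out the filter on low counts (6.70e-05 in edgeR) also gave the call. Nr4a1, an orphan nuclear receptor, had 7.55, 8.99 and 10.7 CPM in controls and 7.13, 7.16 and 6.46 with BIGH3. Its log2 fold change was -0.40 ± 0.13 (adjusted p = 1.00 in edgeR). Dusp1 had 18.9, 21.1 and 19.6 CPM in controls and 17.0, 16.8 and 14.6 with BIGH3, a log2 fold change of -0.30 ± 0.10 (adjusted p = 1.00 in edgeR). In both genes the groups did not overlap, but the difference did not pass the test. For the other 7 members the log2 fold changes ran from -0.31 (Ier2) to 0.08 (Myc), and the libraries of the 2 groups overlapped.

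In differentiated cells BIGH3 came with changes in 6 of 10 members. Ier3 and Dusp1 rose about 3-fold and Btg2 rose 1.24-fold, while Ier2, Klf4 and Nr4a1 fell. These were 3 higher and 3 lower, against 22.6% and 22.9% of all genes (45.5% in either direction), and the median log2 fold change was -0.11 in the members and -0.00589 over all genes. The share of members called is close to that of all genes.

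Ier3 encodes an early response protein linked to cell survival. Its level was 11.2, 8.25 and 10.6 CPM in differentiated controls and 29.2, 32.0 and 29.4 with BIGH3. The treated libraries were also above all 6 undifferentiated ones, which had 13.6 to 15.4 CPM. The log2 fold change was 1.59 ± 0.10, a 3.01-fold rise (adjusted p = 2.68e-11 in edgeR). Dusp1, the MAP kinase phosphatase, had 9.47, 9.15 and 11.9 CPM in controls and 31.1, 31.0 and 27.0 with BIGH3. It rose 2.92-fold (log2 fold change 1.54 ± 0.10, adjusted p = 6.19e-11 in edgeR), and its treated libraries too were above those of all other groups. Btg2, which slows the cell cycle and recruits deadenylases to messages, had 57.5, 64.8 and 63.2 CPM in controls and 83.2, 76.6 and 70.6 with BIGH3. The groups did not overlap and the log2 fold change was 0.32 ± 0.06 (adjusted p = 0.000286 in edgeR). The treated level was still below the 87.4 to 97.4 CPM of undifferentiated cells.

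Klf4, a zinc finger factor of differentiation and pluripotency, was the most abundant member that fell. It had 147, 163 and 183 CPM in differentiated controls and 113, 107 and 102 with BIGH3, a 1.53-fold fall (log2 fold change -0.61 ± 0.07, adjusted p = 4.21e-07 in edgeR). Nr4a1 had 26.2, 22.5 and 24.0 CPM in controls and 19.6, 15.1 and 18.7 with BIGH3 (log2 fold change -0.44 ± 0.11, adjusted p = 0.00292 in edgeR). Every treated library was below every control, yet all stayed above the undifferentiated libraries, which reached 10.7 CPM. Ier2, a nuclear immediate early protein, had 19.4, 14.9 and 13.6 CPM in controls and 11.2, 9.41 and 8.51 with BIGH3 (log2 fold change -0.71 ± 0.23, adjusted p = 0.0316 in edgeR). The call for Ier2 ended without differentiated control 1 (adjusted p = 0.110), differentiated BIGH3 2 (0.0801) or differentiated BIGH3 3 (0.0960), and without the 3 libraries with most Afp (0.131). Zfp36 stood at 12.8, 13.7 and 13.5 CPM in controls and 11.5, 14.3 and 12.4 with BIGH3. Zfp36, Klf2, Atf3 and Myc did not pass the test, with log2 fold changes of -0.07 ± 0.09, -0.14 ± 0.21, -0.63 ± 0.71 and -0.03 ± 0.08.

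The comparison of differentiated with undifferentiated controls called most of the 10 members. In it 8 of 10 members fell, 1 rose and Atf3 was not called, against 28.6% lower, 29.1% higher and 57.7% either way among all genes. The median log2 fold change was -0.56 in the members and -0.0114 over all genes. Scaling by library totals moved the median of all genes to -0.16, and the direction of each of these 9 members was the same under it.

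Zfp36 fell most. Its 12.8, 13.7 and 13.5 CPM in differentiated controls lay far below the 73.8 to 77.4 CPM of undifferentiated controls, a 5.72-fold fall (log2 fold change -2.51 ± 0.08, adjusted p = 2.55e-16 in edgeR). Ier2 fell 4.94-fold (-2.30 ± 0.20 on the log2 scale, adjusted p = 7.41e-06 in edgeR), from 74.1, 69.4 and 93.3 CPM to 19.4, 14.9 and 13.6 CPM. Klf2, a factor known for its induction by fluid flow in endothelium, had 8.16, 7.80 and 7.26 CPM in undifferentiated and 3.10, 2.12 and 2.38 in differentiated controls, a 3.04-fold fall (adjusted p = 2.98e-07 in edgeR). Dusp1 fell 1.95-fold (adjusted p = 6.75e-08), Btg2 1.49-fold (7.59e-08), Ier3 1.46-fold (0.000105) and Klf4 1.25-fold (0.000348), all in edgeR.

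Myc, the growth factor-induced regulator of ribosome and metabolic genes, moved least. It had 46.1, 44.3 and 43.7 CPM in undifferentiated and 36.3, 34.3 and 43.0 in differentiated controls (log2 fold change -0.24 ± 0.08, adjusted p = 0.0137 in edgeR). The groups stood apart by less than 1 CPM, and the call ended without undifferentiated control 1 (adjusted p = 0.0503), differentiated control 1 (0.0559) or differentiated control 2 (0.0936), with length offsets (0.0607), and without the 3 or 4 libraries with most Afp (0.131 and 0.0956).

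Nr4a1 was the only member that rose. It went from 7.55, 8.99 and 10.7 CPM to 26.2, 22.5 and 24.0 CPM, a 2.65-fold rise (log2 fold change 1.41 ± 0.12, adjusted p = 2.22e-09 in edgeR), and no libraries overlapped. In TPM the value was smaller, at 0.84 with limma on log2(TPM + 0.1) (adjusted p = 0.000251) and 0.77 on log2(TPM + 1), whose larger pseudocount shrinks it. On the first of these scales the median of all genes was -0.31, and the other 9 members were also lower than in CPM, such as Btg2 at -0.86 and Myc at -0.57. In BIGH3 treated cells Nr4a1 was at 0.81 on that scale, where the median of all genes was -0.20, in place of 1.37. Atf3, a stress-induced repressor, rested on few reads: 0, 16 and 2 in undifferentiated controls and 13, 21 and 15 in differentiated controls. The BIGH3 groups had 9, 4 and 3 reads when undifferentiated and 13, 7 and 8 when differentiated. Undifferentiated control 2 lay within the differentiated range, and this is the library with the most Afp. The log2 fold change was 1.58 ± 0.74 (adjusted p = 0.0773 in edgeR). Without undifferentiated control 2 it was 4.04 (adjusted p = 0.000474 in edgeR), a fitted value against 2 libraries with 2 reads between them, so its size is not read. With that library left out, no undifferentiated library had more than 9 reads. The filter on low counts then kept Atf3 through differentiated libraries alone, which favours a rise, so this call is a description. The part of liver transcripts in the Atf3 reads was not tested.

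With BIGH3 present, the differentiated cells differed from the undifferentiated in 9 of 10 members, 3 higher and 6 lower, against 28.9% and 27.7% of all genes (56.6% in either direction). The median log2 fold change was -0.30 in the members and 0.0137 over all genes. Ier2 (-2.71 ± 0.21), Zfp36 (-2.21 ± 0.08) and Klf2 (-1.79 ± 0.19) fell, Klf4 fell from 201, 226 and 218 CPM to 113, 107 and 102, and Myc (-0.34 ± 0.08) and Btg2 (-0.25 ± 0.06) fell by less. The Btg2 call ended without the 4 libraries with most Afp (adjusted p = 0.0677 in edgeR). Nr4a1 (1.37 ± 0.12), Ier3 (1.07 ± 0.09) and Dusp1 (0.88 ± 0.10) were higher. Ier3 and Dusp1 were thus lower in differentiated than undifferentiated cells without BIGH3 and higher with it. Atf3 did not pass the test (1.05 ± 0.78).

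**Figure D3:**
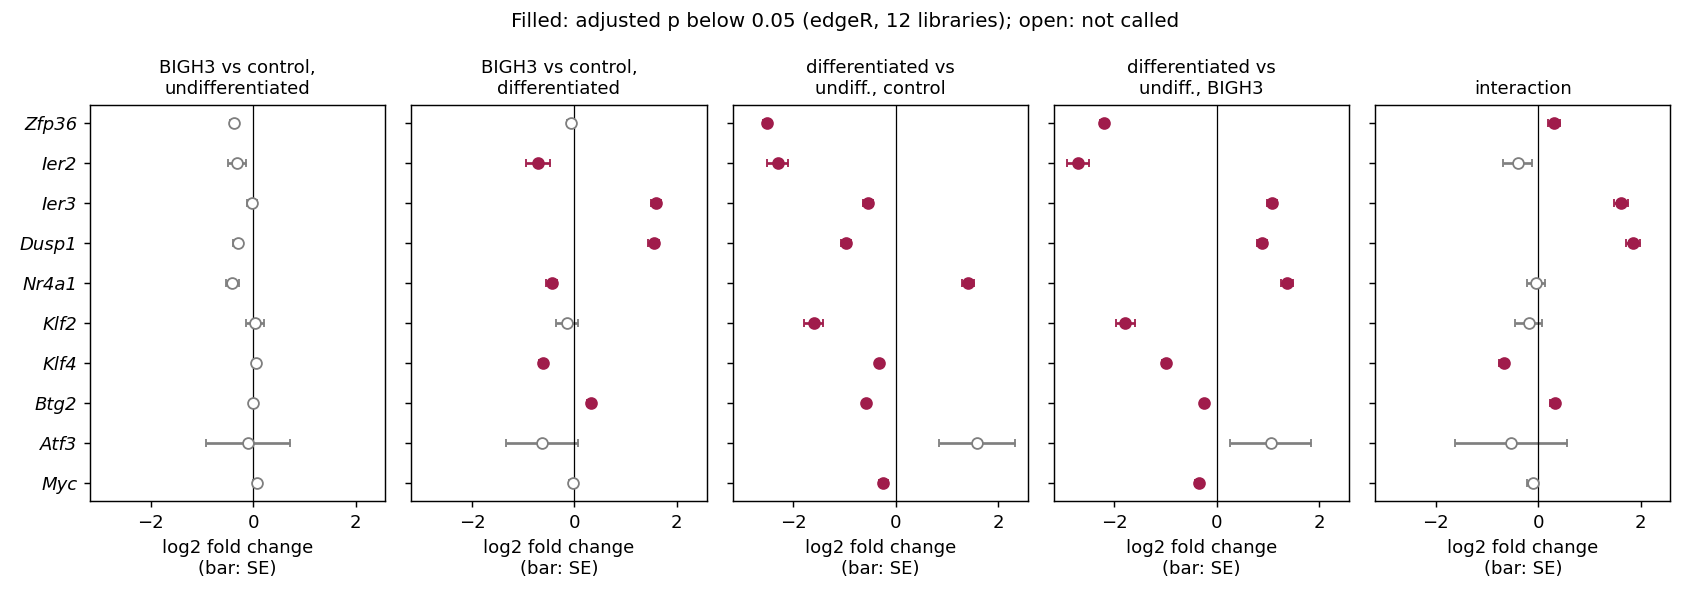
Log2 fold changes of the 10 members in the 5 comparisons, with the standard error as bar. Filled points had an adjusted p below 0.05 in edgeR and open points did not. With BIGH3 no point is filled in undifferentiated cells, where values run from -0.40 (Nr4a1) to 0.08 (Myc), while Ier3 and Dusp1 stand at 1.59 and 1.54 in differentiated cells.

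The interaction term tested whether the effect of BIGH3 differed between the states. In all, 5 of 10 members were called, 4 with a higher effect in differentiated cells and 1 with a lower, against 16.2% and 16.0% of all genes (32.2% in either direction). Dusp1 (1.85 ± 0.14, adjusted p = 1.63e-09 in edgeR) and Ier3 (1.61 ± 0.14, adjusted p = 1.09e-08 in edgeR) had the largest differences between the effects. Klf4 differed by -0.67 ± 0.09 (adjusted p = 1.69e-05 in edgeR) and Btg2 by 0.32 ± 0.09 (adjusted p = 0.00677 in edgeR). Zfp36 differed by 0.31 ± 0.11 (adjusted p = 0.0402 in edgeR), and its call ended when any of 8 single libraries was left out. The Zfp36 call also ended without the 3 libraries with most Afp (adjusted p = 0.0842 in edgeR). For Nr4a1 the effect of BIGH3 was -0.40 in undifferentiated and -0.44 in differentiated cells, and the difference of -0.04 ± 0.17 did not pass the test. Ier2, Klf2, Atf3 and Myc did not pass it either.

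The deposited files split each gene's TPM between transcripts, which gave a second view of Zfp36, Dusp1 and Nr4a1. Zfp36 has 2 transcripts in the files: Zfp36-201 has an intron of 680 bases, and Zfp36-202 is a single exon that starts farther downstream and covers the intron. Zfp36-202 stood at 35.4 ± 0.418 TPM in undifferentiated controls and 26.3 ± 1.71 with BIGH3, and at 0.884 ± 0.597 and 0.620 ± 0.548 TPM in the differentiated groups. These group means were 40.0-fold lower in differentiated controls and 42.4-fold lower with BIGH3. The spliced Zfp36-201 went from 12.1 ± 0.914 to 5.39 ± 0.294 TPM in controls and from 9.54 ± 1.14 to 5.45 ± 1.03 TPM with BIGH3, which was 2.25-fold and 1.75-fold lower. On log2(TPM + 0.1) the median change of all genes between the states was -0.31 in controls and -0.20 with BIGH3. TPM values of Dusp1 and Nr4a1 below are to be read against the same medians. Zfp36-202 made up 72.3% to 76.4% of the gene's TPM in the 6 undifferentiated libraries and 0% to 23.7% in the 6 differentiated ones.

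Dusp1 had the same pattern in its transcripts annotated as holding an intron, Dusp1-203 and Dusp1-204. Together they held 57.7% to 63.0% of the gene's TPM in undifferentiated controls, 38.1% to 55.8% in undifferentiated BIGH3 libraries, 7.57% to 10.8% in differentiated BIGH3 libraries and 0% to 8.39% in the differentiated controls. In controls their summed level was 11.2 ± 1.96 TPM in undifferentiated and 0.289 ± 0.297 TPM in differentiated cells. All other Dusp1 transcripts summed to 7.45 ± 0.370 and 6.81 ± 0.679 TPM, a ratio of 0.914, so the fall of the gene in differentiated controls lay mostly in the intron-holding transcripts. With BIGH3 the other transcripts went from 8.09 ± 1.51 TPM in undifferentiated to 20.2 ± 0.590 TPM in differentiated cells, 2.50-fold higher. Nr4a1-204 is annotated as a retained intron but covers no whole intron of the main Nr4a1 transcript, so it does not count as intron-holding by the measure used for Zfp36 and Dusp1. It held 17.3% to 32.2% of the gene's TPM in undifferentiated and 0.535% to 6.78% in differentiated libraries, while the other Nr4a1 transcripts went from 5.37 ± 1.41 to 12.4 ± 1.11 TPM in controls.

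A lower share was seen across the libraries too. Transcripts that cover an intron of their gene's main transcript were summed over tested genes with one and a mean of at least 1 TPM. They held 5.035% to 5.794% of the TPM of these genes in undifferentiated libraries and 3.795% to 4.745% in differentiated ones. Among 3593 genes with such a transcript and a mean of at least 1 TPM, 399 (11.1%) had a lower share in every differentiated than in every undifferentiated library and 8 (0.22%) a higher one. The median difference over all 3593 was -0.921 percentage points, against -61.7 for Zfp36 and -45.6 for Dusp1, which ranked 2 and 3 for the size of the fall. Rank 1 was Slc15a3, whose libraries overlapped between the states. These values are a description with no test. Shared reads are divided between transcripts by Salmon's model, and Zfp36-201 begins upstream of the RefSeq start, so a spliced transcript from that start is not among the 2 that could take reads. The part of this in the split, and of unspliced RNA, was not tested.

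**Figure D4:**
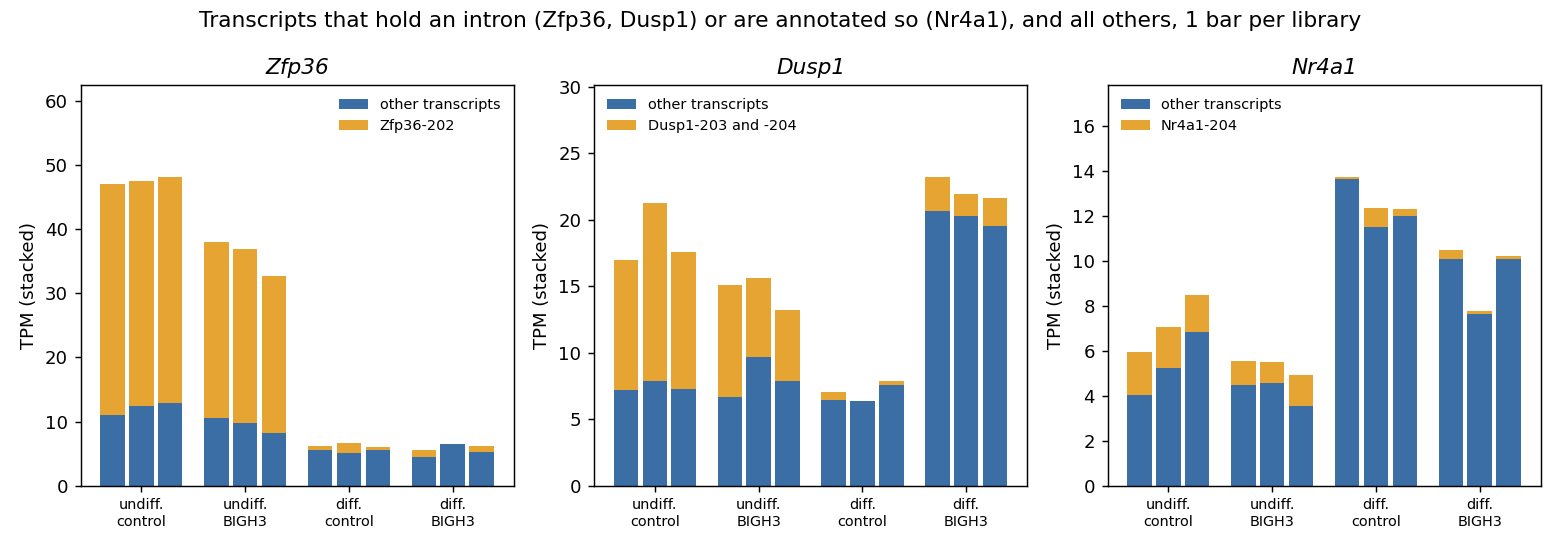
TPM of Zfp36-202, of Dusp1-203 and Dusp1-204 together, and of Nr4a1-204 (orange), stacked on all other transcripts of the gene (blue), 1 bar per library, on linear axes from 0. Nr4a1-204 is shown for its annotation as a retained intron only. In Zfp36 the orange part is 24.3 TPM or more in undifferentiated and 1.57 TPM or less in differentiated libraries. In Dusp1 the blue part is highest in the 3 differentiated BIGH3 libraries.

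Likeness between the members' profiles over the 12 libraries was measured as the root mean square difference of log2 CPM after each profile was centred, so a low value is a close match. Of the 45 pairs of members, Btg2 and Myc were closest (0.161), then Ier3 and Dusp1 (0.222), Klf4 and Myc (0.295), and Zfp36 and Ier2 (0.323). Ier2 and Atf3 were farthest apart (2.10). Small values partly reflect genes that vary little, as Myc does.

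Among 10234 other genes, Egr2 was the nearest to both Zfp36 (0.157) and Ier2 (0.200). The second nearest were Ces2g for Zfp36 (0.257) and Sox11 for Ier2 (0.290). Ier3 was nearest to Gas7 (0.145) and Pxylp1 (0.150), and Dusp1 to Blm (0.145) and Plk4 (0.155), a DNA helicase and a centriole kinase. Nr4a1 was nearest to Camk2a (0.114), a calcium-dependent kinase. Klf2 was nearest to Prx (0.211) and Zfp579 (0.230), Klf4 to Spin4 (0.082) and Zfp97 (0.0867), Btg2 to Tacc1 (0.0709) and Hnrnpll (0.0769), and Myc to Dph6 (0.0679) and Rassf8 (0.0694). For Atf3 the nearest, Gstp2 (0.609) and Rbm20 (0.661), were not close.

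Other genes of the same pathways were read from lists, each given as the number called higher and lower of those tested. The lists share genes, such as Phlda1, Ptgs2, Btg3 and Nr4a3, so their counts are not independent of each other. Over all genes the shares called higher and lower were 22.6% and 22.9% with BIGH3 in differentiated cells, and 29.1% and 28.6% between the control states. Nothing is read from a list near these shares. In undifferentiated cells edgeR called 0 of 145 genes in the lists outside AP-1 and EGR with BIGH3 (7 at an unadjusted p below 0.05, and 0 in DESeq2), and 2 of 10 AP-1 and EGR factors, Fosb and Egr1, fell. In differentiated cells BIGH3 raised 26 and lowered 10 of 49 further immediate early genes (22.6% and 22.9% of all genes), with a median log2 fold change of 0.24 against -0.00589 over all genes. Ptgs2, the inducible cyclooxygenase, rose by 1.44 ± 0.05 and the kinase Pim1 by 2.00 ± 0.10 on the log2 scale. Id1, a target of BMP signalling, fell by 1.16 ± 0.10 and Gadd45g fell by 1.09 ± 0.09. Between the control states 21 of these 49 rose and 9 fell, with the smallest adjusted p for Gadd45a (1.92 ± 0.07) and Ccn2 (2.04 ± 0.10) among those that rose and Per2 (-1.29 ± 0.06) and Pim1 (-1.34 ± 0.10) among those that fell. Of 10 AP-1 and EGR factors, 3 rose and 2 fell with BIGH3 in differentiated cells, Jun by 1.21 ± 0.06, and 7 fell and 1 rose between the control states, Egr1 by -2.87 ± 0.07.

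Genes that ERK signalling induces, most of which restrain it as Dusp1 does, were called higher in 8 and lower in 1 of 11 with BIGH3 in differentiated cells (22.6% and 22.9% of all genes). The list also holds Etv4 (1.45) and Etv5 (0.70), ERK-induced transcription factors that are among the 8. Phlda1 rose by 1.15 ± 0.07 and Spred2 by 0.80 ± 0.07, while Spry2 fell by 0.21 ± 0.08. Between the control states 2 rose and 6 fell, the same factors among the latter (29.1% and 28.6% of all genes), and Phlda1 was one of those that rose (0.77 ± 0.07).

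Messages known to be bound by the Zfp36 protein were listed as 18 genes, of which 11 passed the filter on low counts. All 11 were higher with BIGH3 in differentiated cells, against 22.6% of all genes, and Zfp36 itself was not called there. Nfkbiz rose by 3.48 ± 0.10 and Zc3h12a by 2.18 ± 0.07. Listed genes such as Il23a (mean 0.552 CPM in differentiated BIGH3 cells, at most 0.103 in other groups) and Csf2 (0.603 and 0) were near absent elsewhere. The 11 include a gene of this kind, which passed the filter through that group alone. The filter fixed the rise of such a gene in advance, so the count is a description. Between the control states, where Zfp36 fell 5.72-fold, 4 of the 11 rose and 5 fell, against 29.1% and 28.6% of all genes. Vegfa rose by 0.66 ± 0.06 and Nfkbiz fell by 1.10 ± 0.11.

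Of 10 relatives of Zfp36, Btg2, Nr4a1 and Ier2, 5 rose and 2 fell with BIGH3 in differentiated cells, and 2 rose and 3 fell between the control states. Over all genes the shares were 22.6% and 22.9%, and 29.1% and 28.6%, so the latter counts are near the background. Zfp36l1 had log2 fold changes of 0.05 and 0.00 and was called in neither. Nr4a3, a second receptor of the Nr4a1 family, rose by 2.53 ± 0.32 between the control states and fell by 0.93 ± 0.29 with BIGH3 in differentiated cells, the directions seen in Nr4a1, while Nr4a2 was called in neither (-0.12 and 0.10). Btg3 rose by 0.79 ± 0.08 with BIGH3 in differentiated cells. Of 11 other KLF genes, 3 rose and 3 fell with BIGH3 there, with Klf7 at 0.63 ± 0.08 and Klf9 at -0.46 ± 0.05. Klf9 was also the KLF gene with the smallest adjusted p between the control states, at 1.13 ± 0.05.

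Lists for Myc, for Atf3, for p53 (a known inducer of Btg2) and for glucocorticoids (known inducers of Dusp1) held calls in both directions. The shares of all genes to read them against are 22.6% higher and 22.9% lower with BIGH3 in differentiated cells, and 29.1% higher and 28.6% lower between the control states. Of 28 Myc targets, 11 rose and 6 fell with BIGH3 in differentiated cells, with Ccnd2 at 0.31 ± 0.04 and Odc1, which makes polyamines, at -1.03 ± 0.06, while Myc was not called. The 6 that fell are near the share of all genes. Among 10 partners and rivals of Myc, 2 rose and 3 fell: Mxd3 rose by 1.64 ± 0.21, and Mxd4 (-0.75 ± 0.05) and Max (-0.46 ± 0.05) fell. Of 12 genes of the integrated stress response, to which Atf3 belongs, 9 rose and 1 fell between the control states, including Ddit3 (1.02 ± 0.06) and Trib3 (1.40 ± 0.16). With BIGH3 in differentiated cells 2 of these 12 rose and 6 fell, Atf5 by -1.16 ± 0.06 and Ddit3 by -0.74 ± 0.06. Of 13 p53 targets, 1 rose and 9 fell between the control states, Mdm2 by -0.63 ± 0.05, and 1 rose and 5 fell with BIGH3 in differentiated cells. Of 9 glucocorticoid targets, 4 rose and 3 fell with BIGH3 in differentiated cells, Errfi1 by 0.67 ± 0.05 and Fkbp5 by -0.80 ± 0.09.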

How the data were processed

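RNA of 12 libraries was sequenced after preparation with a KAPA kit. Per the submitters' processing notes, Salmon, StringTie, cutadapt and FastQC were used with the mm10 build. Their versions are not given in the sources used here. Per the file headers, the authors deposited for each transcript the estimated counts (which need not be whole), TPM (a length-corrected share of the library), and the length and effective length in bases. Of 147828 transcripts, 137063 (92.7%) matched GENCODE M21 (GRCm38) by identifier. The unmatched held 1.279% to 3.665% of a library's reads and were left out. Estimated counts were summed per gene and rounded, and TPM was summed per gene.

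Genes were filtered with filterByExpr, given TMM factors, and tested in edgeR 4.0.16 (robust quasi-likelihood, R 4.3.3) over 12 libraries together, with 8 residual degrees of freedom and a biological coefficient of variation of 8.18%. Tests were two-sided. The Benjamini-Hochberg adjustment ran over 14711 genes, and a gene was called below 0.05. Each standard error is |log2 fold change| / √F. Alternatives used DESeq2 1.42.0, limma 3.58.1 on log2(TPM + 1) and log2(TPM + 0.1), other scalings, no filter, length offsets from the deposited effective lengths, and left-out libraries. From each gene list, the text names up to 2 genes higher and 2 lower with the smallest adjusted p, and for each member the 2 nearest profiles among genes with a mean log2 CPM of at least 2. One of these profiles is not reported here. Zfp36l1, Nr4a2 and Slc15a3 were chosen after their values were seen. The members and lists were chosen with earlier results of these data known. Reads were not separated by strand here. Ergic1 overlaps, on the other strand, a far upstream exon of Dusp1, and Gm44710, antisense to Zfp36, had 69 reads in all.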

Additional observations from a re-analysis of the deposited data

Results flagged for a closer look

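In 5 genes the effect of BIGH3 differed between differentiated and undifferentiated cells by the interaction term of edgeR. The difference, as a log2 value in differentiated minus undifferentiated cells, was 1.85 for Dusp1 (adjusted p = 1.63e-09), 1.61 for Ier3 (1.09e-08), 0.32 for Btg2 (0.00677), 0.31 for Zfp36 (0.0402) and -0.67 for Klf4 (1.69e-05). For Dusp1 the effect turned from -0.30, not called, in undifferentiated cells to 1.54 in differentiated cells. Zfp36 was called in neither state alone, with effects of -0.37 and -0.07. Over all alternatives the adjusted p was at most 1.48e-06 for Dusp1, 2.80e-06 for Ier3, 0.000882 for Klf4 and 0.0324 for Btg2, and it ranged from 0.0182 to 0.177 for Zfp36.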

How the results depend on the processing

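Of 50 combinations of gene and comparison, 43 kept their side of the threshold under each setting tried, and 7 did not. In undifferentiated cells the count of members called with BIGH3 was 0, and it was 1 (Zfp36) with DESeq2, with library totals and with no filter on low counts. Over all genes that comparison called 3 genes, against 8, 4 and 21 under these settings. Calls lost without single libraries are given above for Ier2 and Myc. With no filter on low counts the Ier2 call in differentiated cells was also lost (adjusted p = 0.0660), and Atf3 was called between the control states (0.0367), as it was without the 3 or 4 libraries with most Afp (0.00250 and 0.00196). The Zfp36 interaction was also lost with DESeq2 (adjusted p = 0.0512), with length offsets (0.120) and without the 3 libraries with most Afp (0.0842). Without undifferentiated control 2 the Atf3 interaction was called (-3.00, adjusted p = 0.0434). In each setting that left out this library, the filter kept Atf3 through differentiated libraries alone, so these Atf3 calls are a description. No called value changed direction under these settings, while uncalled values near 0 did in some. The 2 settings without libraries rich in Afp were chosen after seeing the data.

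With the replicate number as a block, the 5 comparisons called 0, 6, 9, 9 and 5 members, as without it. Deviations of same-numbered libraries correlated at -0.224 to 0.35, above 0.1 in 4 of 18 pairs, so the numbers were not taken to pair the libraries. Counted in reads in place of TPM, Zfp36-202 held 71.9% of the gene in undifferentiated controls and 70.7% with BIGH3, against 74.5% and 73.4%. Depth limits Atf3, with 16 to 49 reads a group.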
